A study of Rattus norvegicus with 6 samples.

Results

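Autophagy genes were analysed in primary rat microglia stimulated with lipopolysaccharide (LPS) in the absence or presence of siponimod. The 44 genes listed for this purpose encode the core machinery of autophagy, its cargo receptors and its transcriptional regulators. They were chosen by name, with earlier results of these data known. Of these, 42 were found in the count tables and all 42 passed the filter on low counts, out of 23139 genes listed and 11977 tested. Atg4a and Ncoa4 were not analysed here, since no row of the tables carried their names.

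Microglia were obtained from cortices of Wistar rats at postnatal day 1, shaken off mixed cultures and sorted with magnetic beads for CD11b/c. All 6 libraries came from cells stimulated with 100 ng/mL LPS, which is part of the outer membrane of Gram-negative bacteria and a strong stimulus of microglia. In the LPS group (3 libraries), the solvent DMSO was added, whereas in the LPS/siponimod group (3 libraries) 50 µM siponimod, a sphingosine 1-phosphate receptor modulator, was present. Unstimulated cells and cells with siponimod alone were not analysed here, and the effect of LPS itself is therefore not addressed. Stimulated cultures were fixed or lysed after 1 and 3 days, and which time applies to the sequenced RNA is not stated separately. Each culture was sequenced as polyA-selected mRNA of the whole cell population, so that a lower value can come from fewer cells of a type or from less RNA per cell, which cannot be told apart. Replicates are biological replicates according to the study. The LPS libraries held 39484979, 38301365 and 38080379 counts and the LPS/siponimod libraries 46643859, 43336006 and 38857441 counts.

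In autophagy, a double membrane grows around cytoplasm, damaged organelles or protein aggregates, closes to an autophagosome and fuses with lysosomes, where the content is degraded. The ULK1 kinase complex starts the process, a lipid kinase complex around Beclin 1 and Vps34 marks the site, ATG9 and ATG2 supply membrane, and conjugation enzymes modify the growing membrane, to which receptors such as p62 bring their cargo. In microglia, autophagy is known for its part in the handling of engulfed material and in limiting inflammatory signalling. mRNA levels do not measure autophagic flux, which depends largely on protein modification and turnover.

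LPS replicate 3 stood apart from its group before any comparison was made, and LPS/siponimod replicate 3 did so to a lesser degree. LPS replicate 3 correlated with LPS replicates 1 and 2 at 0.935 and 0.945 across genes on the log2 scale, whereas these correlated with each other at 0.983. LPS/siponimod replicate 3 correlated with LPS/siponimod replicates 1 and 2 at 0.966 and 0.956, and these with each other at 0.973. Both libraries numbered 3 also had the highest sums of oligodendrocyte lineage and neuron markers in their group, as described at the end. Their part in the results was not tested. The number of changed autophagy genes is given with and without LPS replicate 3 and with both libraries left out.

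Differentially expressed genes (DEGs) were defined by an adjusted p-value of at most 0.05 in edgeR's quasi-likelihood test and a fold change (FC) of at least 1.5. Unless a replicate block is named, calls here and below come from a fit of the condition alone, without pairing of libraries. Of the 42 autophagy genes, 12 were upregulated (28.6%) and 2 were downregulated (4.76%) in LPS/siponimod, while 28 were not called. Over all genes tested, 25.3% were DEGs, 13.6% being upregulated and 11.7% downregulated. The share of upregulated autophagy genes was thus above that of all genes, and the share of downregulated ones below it, without a test of either difference. Since the genes were chosen with earlier results of these data known, these shares are no independent evidence. The median log2 FC was 0.34 among autophagy genes and -0.02 among all genes tested, and 30 autophagy genes had a positive and 12 a negative value. In 23 of the 42 genes the values of the 3 LPS/siponimod libraries did not overlap with those of the 3 LPS libraries, and over all genes this applied to 49.3%. Without LPS replicate 3, the numbers were 12 upregulated and 3 downregulated genes with a median of 0.24, and 30.3% of all genes were DEGs. With both libraries numbered 3 left out, they were 9 and 1 with a median of 0.26, and 19.3% of all genes were DEGs. Other libraries moved the calls more. Without LPS replicate 2, 4 autophagy genes were upregulated and 0 downregulated, while 5.16% of all genes were DEGs. Without LPS/siponimod replicate 1, the numbers were 5 and 0 (6.22% of all genes), and without LPS/siponimod replicate 3 they were 8 and 0 (8.50%). Both downregulated genes also lost their call without LPS replicate 1, where 13.9% of all genes were DEGs. In these 4 fits the share of DEGs among all genes was thus also below the 25.3% found with all libraries. Rb1cc1, Atg101 and Sqstm1 were called in all 6 fits with 1 library omitted. With the replicate number as a block, 17 of the 42 autophagy genes were called, while 34.0% of all genes were DEGs.

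**Figure D1:**
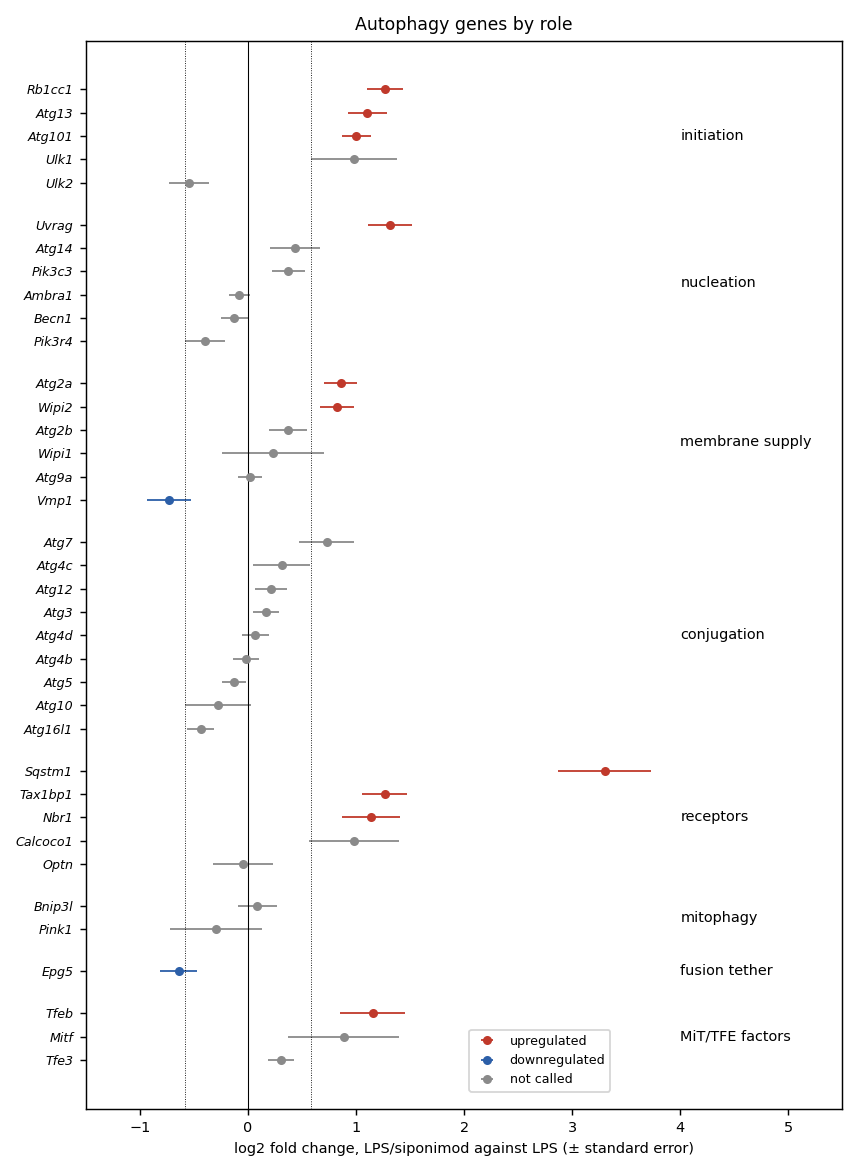
The plot shows the log2 fold change of LPS/siponimod against LPS (horizontal axis) with its standard error for 37 of the autophagy genes, grouped by role. Red points are 10 upregulated genes, blue points the 2 downregulated genes and grey points 25 genes that were not called, and the dotted lines mark the 1.5-fold threshold in either direction.

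The cargo receptors held the strongest change. Sqstm1 encodes p62, which binds ubiquitinated cargo and is itself degraded by autophagy. Its level was 494, 196 and 214 CPM (counts scaled to a common library size) in the LPS libraries and 3534, 2626 and 2741 CPM in the LPS/siponimod libraries. All LPS/siponimod libraries were thus far above all LPS libraries, and within LPS replicate 1 was the highest. Sqstm1 increased from 302 ± 167 CPM (SD, n = 3) to 2967 ± 494 CPM (SD, n = 3), a 9.84-fold change (log2 FC 3.30 ± 0.43, adjusted p = 0.00737). Here and in the following, an error after a log2 FC is its standard error. Sqstm1 had the largest log2 FC among the 42 genes. In the least favourable fit, without LPS replicate 2, the adjusted p was 0.0432.

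Among the other receptors, Tax1bp1 and Nbr1 were upregulated as well. Tax1bp1, a ubiquitin-binding receptor that also limits inflammatory signalling, stood at 173, 157 and 146 CPM in LPS and at 476, 290 and 377 CPM in LPS/siponimod (log2 FC 1.26 ± 0.21, adjusted p = 0.0114). Nbr1, a receptor for ubiquitinated cargo that cooperates with p62, stood at 225, 186 and 119.5 CPM and at 451, 318 and 398 CPM, respectively (log2 FC 1.14 ± 0.27, adjusted p = 0.0271). In both genes the groups did not overlap. Calcoco1, a receptor described for the endoplasmic reticulum and the Golgi apparatus, did not overlap either, with 39.9, 25.0 and 11.7 CPM against 55.5, 43.5 and 51.8 CPM, but it did not pass the test (log2 FC 0.98 ± 0.42, adjusted p = 0.123). Optn, a receptor for ubiquitinated cargo and mitochondria, differed in sign between replicates. Its LPS/siponimod level was higher in replicate 1 (247 against 135 CPM) and lower in replicate 2 (177 against 236 CPM) and replicate 3 (160.2 against 234 CPM), with a log2 FC of -0.05 and a standard error of 0.28. Of the 5 receptors tested, 3 were upregulated, against 13.6% of all genes, and 0 downregulated, with a median log2 FC of 1.14. Without LPS replicate 2, the count was 1. The call of Nbr1 was lost without LPS replicate 2 (adjusted p = 0.0997), without LPS/siponimod replicate 1 (0.110) and without LPS/siponimod replicate 3 (0.0818), and that of Tax1bp1 without LPS replicate 2 (0.0602).

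**Figure D2:**
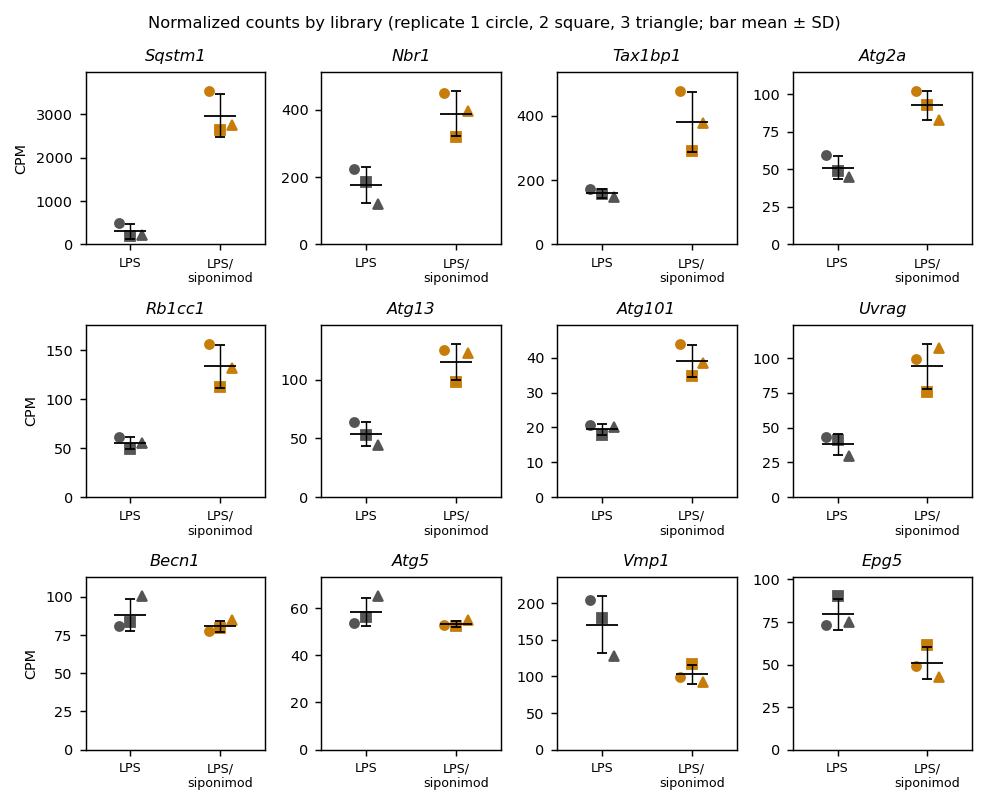
The plots show CPM (vertical axes, linear and starting at 0) of 12 autophagy genes in each of the 6 libraries, with circles, squares and triangles for replicates 1, 2 and 3 and bars for the mean ± SD of 3 libraries. The groups are separated for the 8 upregulated genes in the upper 2 rows and for Vmp1 and Epg5, whereas they overlap for Becn1 and Atg5.

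Promoter sequences of Sqstm1, the gene with the largest change, and of Atg3 were taken from RefSeq (assembly GRCr8, which differs from the assembly mRatBN7.2 to which the reads were mapped). Shown are the 250 bases before the transcription start, in transcript direction, from chr10:35037751-35038000 (minus strand) for Sqstm1 and from chr11:69159281-69159530 (minus strand) for Atg3. Atg3 is shown because it holds the motif CACGTG, the core bound by TFEB and its relatives, and capitals mark its matches, the second of which is shown with the flanking letters of the longer form TCACGTGA.
Sqstm1: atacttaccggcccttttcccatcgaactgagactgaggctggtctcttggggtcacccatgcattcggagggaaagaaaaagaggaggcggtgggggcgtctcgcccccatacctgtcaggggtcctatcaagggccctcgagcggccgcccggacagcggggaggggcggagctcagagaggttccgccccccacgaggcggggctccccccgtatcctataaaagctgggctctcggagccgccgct
Atg3: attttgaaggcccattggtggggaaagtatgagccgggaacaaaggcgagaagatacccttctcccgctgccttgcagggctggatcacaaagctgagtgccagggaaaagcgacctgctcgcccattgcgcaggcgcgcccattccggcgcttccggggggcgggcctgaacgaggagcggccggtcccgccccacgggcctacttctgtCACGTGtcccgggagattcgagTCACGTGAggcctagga

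For 39 of the 44 genes a promoter window was given, from 250 bases before to 50 bases after the start. On both strands of these windows, 4 motifs were searched. CACGTG was present in 5 of the 39 genes (Atg3, Atg5, Atg14, Epg5 and Pink1) and in 6.42% of all 33469 windows. None of these 5 genes was upregulated and Epg5 was downregulated, and among the 10 upregulated genes with a window 0 held the motif. With so few genes, 0 of 10 is close to the share of 6.42% in all windows. The longer form TCACGTGA, which contains CACGTG, was found in Atg3 and Epg5 and in 0.777% of all windows. TGATGNAA, the core of the C/EBP-ATF response element, was present in 3.98% and the FoxO core TGTTTAC in 3.78% of all windows, and neither was found in a window of these 39 genes. The median GC content was 60.67% in the windows of the autophagy genes and 51.67% in all windows, and the shares were not matched for it. These counts describe letters in a short window and not binding of a factor, and sites farther away were not searched.

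In the initiation complex, 3 of 5 genes were upregulated, against 13.6% of all genes, and 0 downregulated, with a median log2 FC of 1.00. Rb1cc1, which encodes the scaffold FIP200, rose from 61.3, 49.6 and 55.7 CPM in LPS to 157, 113 and 132 CPM in LPS/siponimod (log2 FC 1.27 ± 0.16, adjusted p = 0.00733). Atg13, the regulatory partner of the ULK kinases, rose from 63.7, 53.3 and 44.1 CPM to 125, 97.8 and 123 CPM (log2 FC 1.10 ± 0.18, adjusted p = 0.0112). Atg101, which stabilizes ATG13, rose from 20.8, 17.8 and 20.0 CPM to 44.1, 34.8 and 38.5 CPM (log2 FC 1.00 ± 0.14, adjusted p = 0.00794). For these 3 subunits the FC lay between 2.00 and 2.41. The kinases themselves were not called in the fit without the block. Ulk1 was measured at 26.7, 14.8 and 8.51 CPM in LPS and at 36.0, 33.3 and 29.7 CPM in LPS/siponimod (log2 FC 0.98 ± 0.40), without overlap but also without a call (adjusted p = 0.108). Its differences within replicate pairs ranged from 0.43 in replicate 1 to 1.80 in replicate 3, and with the replicate number as a block the adjusted p was 0.0349. Ulk2 had lower values in LPS/siponimod, 38.7, 47.8 and 32.7 CPM against 54.2, 68.1 and 52.0 CPM, and likewise did not pass the test (log2 FC -0.55 ± 0.18, adjusted p = 0.0686). In all 5 genes the groups did not overlap, which applied to 49.3% of all genes. Atg13 lost its call without LPS replicate 2 (adjusted p = 0.0612) and without LPS/siponimod replicate 1 (0.0551), Ulk1 was called without LPS replicate 1 (0.0366) and Ulk2 without LPS/siponimod replicate 2 (0.0489).

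In the nucleation group, which forms the lipid kinase complexes, Uvrag was the gene with a call. It encodes a Beclin 1 partner that acts in endosome and autophagosome maturation and rose from 43.2, 41.1 and 29.3 CPM to 99.5, 75.8 and 107 CPM (log2 FC 1.31 ± 0.21, adjusted p = 0.0105). This call was lost without LPS replicate 2 (adjusted p = 0.0521) and without LPS/siponimod replicate 1 (0.0502). No other gene of this group was called. Becn1, encoding Beclin 1, was measured at 80.8, 83.6 and 100.4 CPM in LPS and at 77.6, 80.0 and 84.8 CPM in LPS/siponimod (log2 FC -0.13 ± 0.13). Pik3c3, the lipid kinase Vps34, had a log2 FC of 0.37 ± 0.15 (adjusted p = 0.109), and Pik3r4, its regulatory subunit, had -0.40 ± 0.19 (adjusted p = 0.151). Atg14, which directs the complex to autophagosome formation, had 0.43 ± 0.23, and Ambra1, a Beclin 1 regulator, had -0.08 ± 0.10. In total, 1 of 6 genes was upregulated (16.7%, close to the 13.6% of all genes), and 3 values were positive and 3 negative with a median of 0.15.

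Of 6 genes of membrane supply, 2 were upregulated (33.3%) and 1 was downregulated (16.7%), against 13.6% and 11.7% of all genes, with a median log2 FC of 0.30. Atg2a, a lipid transfer protein, rose from 59.6, 48.6 and 44.8 CPM to 102, 92.5 and 83.1 CPM (log2 FC 0.86 ± 0.15, adjusted p = 0.0134). Wipi2, which recruits the conjugation machinery to the growing membrane, rose from 27.5, 22.5 and 28.7 CPM to 47.6, 39.6 and 51.9 CPM (log2 FC 0.82 ± 0.16, adjusted p = 0.0158). Both showed almost the same difference in the 3 replicate pairs, with 0.78 to 0.93 for Atg2a and 0.79 to 0.85 for Wipi2. In contrast, Vmp1, a membrane protein of the endoplasmic reticulum needed for autophagosome formation, fell from 204, 179.7 and 128 CPM to 99.5, 117 and 91.8 CPM (log2 FC -0.73 ± 0.20, adjusted p = 0.0422). Atg9a, the scramblase of the vesicles that seed the membrane, was at 97.2, 93.0 and 86.3 CPM in LPS and at 94.4, 98.3 and 86.8 CPM in LPS/siponimod, with a log2 FC of 0.02 and a standard error of 0.11. Atg2b had 0.37 ± 0.17 and Wipi1 0.23 ± 0.47, the latter ranging from 5.71 to 21.7 CPM within LPS alone. Without LPS replicate 2 or LPS/siponimod replicate 1, Atg2a (adjusted p = 0.0680 and 0.0658) and Wipi2 (0.0641 and 0.0709) were no longer called, and Wipi2 was also lost without LPS/siponimod replicate 3 (0.0628). The call of Vmp1 held without LPS replicate 3 and was lost in the other 5 fits with 1 library omitted, with a highest adjusted p of 0.154.

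None of the 9 conjugation genes tested among the 42 was called, where 13.6% of all genes were upregulated and 11.7% downregulated. This difference was not tested. The conjugation genes encode enzymes and their partner proteins that act at the growing membrane. Their median log2 FC was 0.07, with 5 positive and 4 negative values. Atg5, part of the complex that acts like an E3 ligase, was at 53.8, 56.4 and 65.0 CPM in LPS and at 52.6, 52.4 and 54.8 CPM in LPS/siponimod (log2 FC -0.13 ± 0.11). Atg12, which is joined to ATG5, had 0.22 ± 0.15 and Atg16l1, which targets the complex to the membrane, had -0.44 ± 0.13. Atg16l1 passed the threshold on p (adjusted p = 0.0469) with a fold of 0.738, short of a 1.5-fold decrease. It was the gene of this group in which the libraries did not overlap, which applied to 49.3% of all genes. Its levels were 39.8, 45.0 and 36.9 CPM in LPS against 29.4, 32.8 and 27.7 CPM in LPS/siponimod. Its paralog Atg16l2, which is outside the 42 genes and was chosen after its values were seen, was upregulated (log2 FC 1.05 ± 0.22, adjusted p = 0.0191). Atg7, the E1-like enzyme, had the highest log2 FC of the group, with 29.3, 23.4 and 19.7 CPM against 50.6, 28.3 and 41.0 CPM (log2 FC 0.73 ± 0.25, adjusted p = 0.0754). It was called with DESeq2 (adjusted p = 0.0370), with edgeR's likelihood ratio test (0.0483), with the replicate number as a block (0.0378) and without LPS/siponimod replicate 2 (0.0393). The E2-like enzymes Atg3 (0.16 ± 0.12) and Atg10 (-0.28 ± 0.31) and the proteases Atg4b (-0.02 ± 0.12), Atg4c (0.31 ± 0.26) and Atg4d (0.07 ± 0.12) did not pass the test either.

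**Figure D3:**
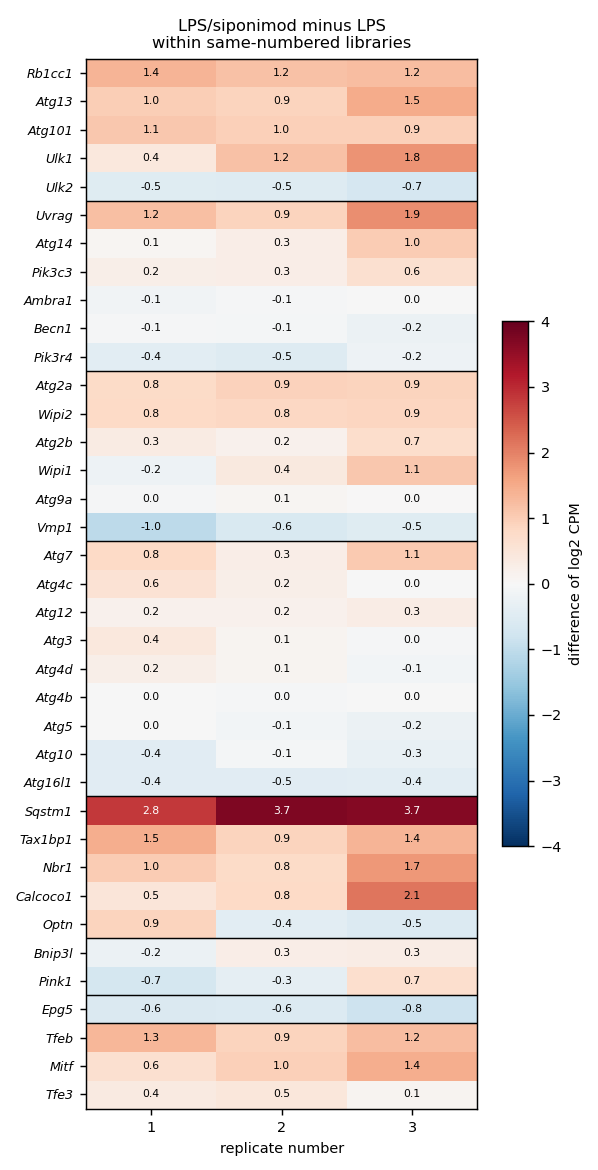
The heat map shows the difference of log2 CPM between LPS/siponimod and LPS within same-numbered libraries (columns 1 to 3) for 37 of the genes (rows, ordered by role with lines between roles). Red stands for higher and blue for lower values in LPS/siponimod, and 29 of the 37 genes had the same sign in the 3 columns, whereas Optn and Pink1, for example, changed sign.

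Same-numbered libraries were compared with each other to show how stable these values were. The direction was the same in all 3 pairs for 34 of 42 autophagy genes (81.0%) and for 70.8% of all genes tested. The median difference of the autophagy genes was 0.34, 0.26 and 0.65 in replicates 1, 2 and 3. By role, the initiation group had medians of 0.97, 0.97 and 1.24, the receptors of 1.00, 0.79 and 1.73 and the conjugation group of 0.19, 0.10 and -0.03. The 8 genes that changed sign were Wipi1, Atg9a, Atg3, Atg4c, Atg4d, Optn, Pink1 and Bnip3l.

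The 2 listed genes of mitophagy, the removal of mitochondria, were not called, where 25.3% of all genes were DEGs. Pink1, a kinase that marks damaged mitochondria, was at 98.1, 84.4 and 29.8 CPM in LPS and at 59.6, 66.3 and 46.97 CPM in LPS/siponimod, so that LPS replicate 3 alone held the lowest value (log2 FC -0.30 ± 0.43, adjusted p = 0.625). Without LPS replicate 3, Pink1 was called as downregulated in edgeR's test (log2 FC -0.66, adjusted p = 0.0373). With the replicate number as a block, Pink1 was not called (log2 FC -0.14, adjusted p = 0.715), nor was it with both libraries numbered 3 left out. Bnip3l, a mitophagy receptor of the outer mitochondrial membrane, had a log2 FC of 0.08 ± 0.18. Epg5, which tethers autophagosomes to lysosomes, fell from 73.5, 90.1 and 74.9 CPM to 49.2, 61.2 and 42.6 CPM (log2 FC -0.64 ± 0.17, adjusted p = 0.0369). The groups did not overlap in Epg5, but its call was lost without LPS replicate 1 (adjusted p = 0.0745), LPS replicate 2 (0.133), LPS/siponimod replicate 1 (0.144) and LPS/siponimod replicate 3 (0.116). The downregulated members of the whole set were thus Vmp1 and Epg5.

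The MiT/TFE factors are transcription factors of lysosomal and autophagy genes whose activity depends largely on their transport into the nucleus. Tfeb rose from 16.9, 17.0 and 9.91 CPM to 42.4, 31.7 and 23.4 CPM (log2 FC 1.15 ± 0.30, adjusted p = 0.0353), and the groups did not overlap. The call held without LPS replicate 3 and was lost in the other 5 fits with 1 library omitted, with a highest adjusted p of 0.133. Tfe3 had 137, 133 and 159.7 CPM against 175, 182 and 174 CPM, also without overlap and without a call (log2 FC 0.31 ± 0.12, adjusted p = 0.110). Mitf varied more within LPS (51.4, 24.6 and 13.97 CPM) and within LPS/siponimod (80.2, 47.9 and 37.999 CPM) than the others (log2 FC 0.88 ± 0.51, adjusted p = 0.231). In each of the 3 pairs Mitf was higher in LPS/siponimod, and the fit with the replicate block called it (adjusted p = 0.0153). In the fits with 1 library omitted and no block it was not called, and its log2 FC ranged from 0.51 without LPS/siponimod replicate 1 (adjusted p = 0.579) to 1.53 without LPS replicate 1 (0.0724).

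Related genes were then compared with each other. To do so without the scaling of libraries, the log2 ratio of the counts of 2 genes was taken within each library for 9 pairs of genes, of which 6 are given here. Such a ratio also depends on transcript length, so that its difference between groups is read and not its level. Sqstm1/Nbr1 was 1.14, 0.08 and 0.84 in LPS and 2.97, 3.04 and 2.78 in LPS/siponimod, a difference of 2.25 ± 0.32. Ulk1/Ulk2 differed by 1.69 ± 0.50, from -1.02, -2.20 and -2.61 to -0.11, -0.52 and -0.14. Smaller differences without overlap were found for Tfeb/Tfe3 (0.84 ± 0.42) and Atg2a/Atg2b (0.47 ± 0.21). For each of these 4 pairs the exact two-sided permutation test, made without pairing of libraries, gave p = 0.1. This is the smallest value that 3 against 3 libraries allow. After Benjamini-Hochberg adjustment over 9 pairs it was 0.15, so that none can pass 0.05 in this design. Atg4c/Atg4d (0.19 ± 0.31) and Wipi1/Wipi2 (-0.41 ± 0.63) overlapped between groups.

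**Figure D4:**
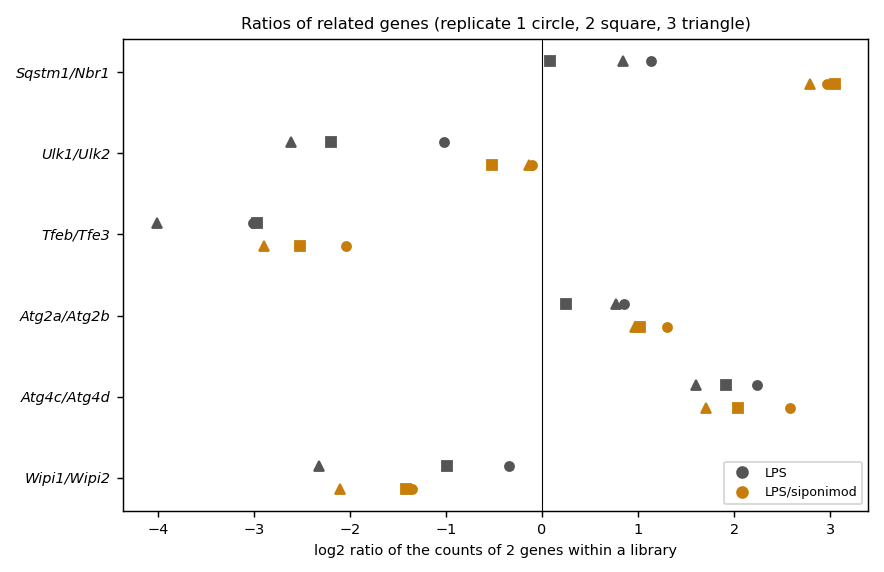
The plot shows the log2 ratio of the counts of 2 related genes within each library (horizontal axis) for 6 pairs, with LPS in grey and LPS/siponimod in orange and circles, squares and triangles for replicates 1, 2 and 3. Grey and orange symbols do not overlap in the upper 4 pairs, the widest separation being that of Sqstm1/Nbr1.

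Genes around the machinery were examined in further lists. Autophagy initiation is restrained by the kinase complex mTORC1 and favoured by the energy sensor AMPK. Among 26 tested genes of mTORC1 and its inputs, 6 were upregulated (23.1%) and 2 downregulated (7.69%), with a median log2 FC of 0.11. Over all genes, the shares to be set beside these and the following lists were 13.6% and 11.7%. Upregulated were Flcn (1.30 ± 0.21, adjusted p = 0.0112) and its partner Fnip2 (1.89 ± 0.27, adjusted p = 0.00875), which act on the Rag GTPases, the GTPases Rragc (0.75 ± 0.22) and Rragd (2.86 ± 0.70), the mTORC1 inhibitor Akt1s1 (0.68 ± 0.14), and Sesn2, a leucine-sensing inhibitor (0.95 ± 0.16, adjusted p = 0.0123). Slc38a9, a lysosomal arginine sensor (-1.07 ± 0.21, adjusted p = 0.0168), and Sesn3 (-1.74 ± 0.41, adjusted p = 0.0269) were downregulated. Sesn2 and Sesn3, relatives of one family, thus changed in opposite directions. Mtor itself had a log2 FC of -0.11 (adjusted p = 0.559). Rragb and Fnip1 were not analysed here.

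Of 7 tested AMPK subunits and upstream kinases, 3 were upregulated (42.9%) and 1 downregulated (14.3%, close to the 11.7% of all genes), and the median was 0.61. Prkaa1, a catalytic subunit, stood at 57.8, 55.0 and 60.2 CPM in LPS and at 99.0, 108 and 91.7 CPM in LPS/siponimod (log2 FC 0.79 ± 0.11, adjusted p = 0.00859). Prkab2, a scaffold subunit, rose (1.89 ± 0.27, adjusted p = 0.00825), as did the upstream kinase Camkk2 (1.12 ± 0.21, adjusted p = 0.0159), whereas the nucleotide-binding subunit Prkag1 fell from 34.1, 36.4 and 36.2 CPM to 14.1, 16.4 and 9.83 CPM (-1.40 ± 0.20, adjusted p = 0.00885). Subunits of the same enzyme thus changed in opposite directions.

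Among 18 other core autophagy genes, 5 were upregulated (27.8%) and 1 was downregulated (5.56%), against 13.6% and 11.7% of all genes, with a median of 0.37. The 3 with the smallest adjusted p-values were Wdr45, a relative of the WIPI proteins (1.69 ± 0.19, adjusted p = 0.00636), Tecpr1, which acts at autophagosomes and damaged lysosomes (2.201 ± 0.34, adjusted p = 0.00993), and the kinase Dapk3 (1.07 ± 0.18, adjusted p = 0.0116). Tbk1, the kinase that phosphorylates Optn and p62, fell from 123, 121 and 98.0 CPM to 67.3, 84.8 and 67.0 CPM (-0.64 ± 0.16, adjusted p = 0.0295). The receptors of ER-phagy, the degradation of endoplasmic reticulum, had 2 upregulated genes of 7 (28.6%) and a median of 0.21. Tex264 rose from 83.6, 61.9 and 58.3 CPM to 237, 188 and 199.8 CPM (1.62 ± 0.19, adjusted p = 0.00655), and Ccpg1 from 36.3, 21.4 and 9.56 CPM to 299.7, 149.7 and 169.9 CPM (3.20 ± 0.55, adjusted p = 0.0124). Among 10 further mitophagy genes with a median of -0.023, Bcl2l13, a mitochondrial receptor (1.36 ± 0.15, adjusted p = 0.00595), and Tbc1d15, a Rab7 regulator (1.17 ± 0.16, adjusted p = 0.00779), were upregulated, and the mitochondrial fission protein Fis1 was downregulated (-0.84 ± 0.13, adjusted p = 0.00981).

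Of 13 tested genes of autophagosome fusion, 0 were upregulated and 3 downregulated (23.1%), and the median was -0.28, where 13.6% and 11.7% of all genes were called. These 3 encode SNARE proteins, which drive membrane fusion, but Snap29 (log2 FC 0.36 ± 0.19) and Ykt6 (-0.12 ± 0.15), SNARE genes of the same list chosen after their values were seen, were not called. Vamp8 fell from 202, 189 and 164 CPM to 81.2, 109 and 66.3 CPM (-1.11 ± 0.21, adjusted p = 0.0155). Stx7 fell from 114, 126 and 134 CPM to 79.1, 78.3 and 46.97 CPM (-0.87 ± 0.22, adjusted p = 0.0332). Stx17, the SNARE of completed autophagosomes, fell from 11.98, 12.2 and 9.13 CPM to 6.65, 8.00 and 5.29 CPM (-0.74 ± 0.22, adjusted p = 0.0498). Vps11, a subunit of the HOPS tethering complex, passed the threshold on p in the other direction (0.52, adjusted p = 0.0291) but not the fold threshold. Whether the lists differ from each other was not tested. Of the genes named from these further lists, Fnip2, Prkab2, Prkaa1, Prkag1, Wdr45, Bcl2l13, Tbc1d15 and Tex264 were called in all 6 fits with 1 library omitted. The other called genes named from these lists lost their call in at least 1 of these fits, and for each of them LPS replicate 2 or LPS/siponimod replicate 1 was among the libraries without which it was lost. Their highest adjusted p-values lay between 0.0523 for Tecpr1 and 0.169 for Rragc, and Stx7 and Rragc were called in none of the 6.

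**Figure D5:**
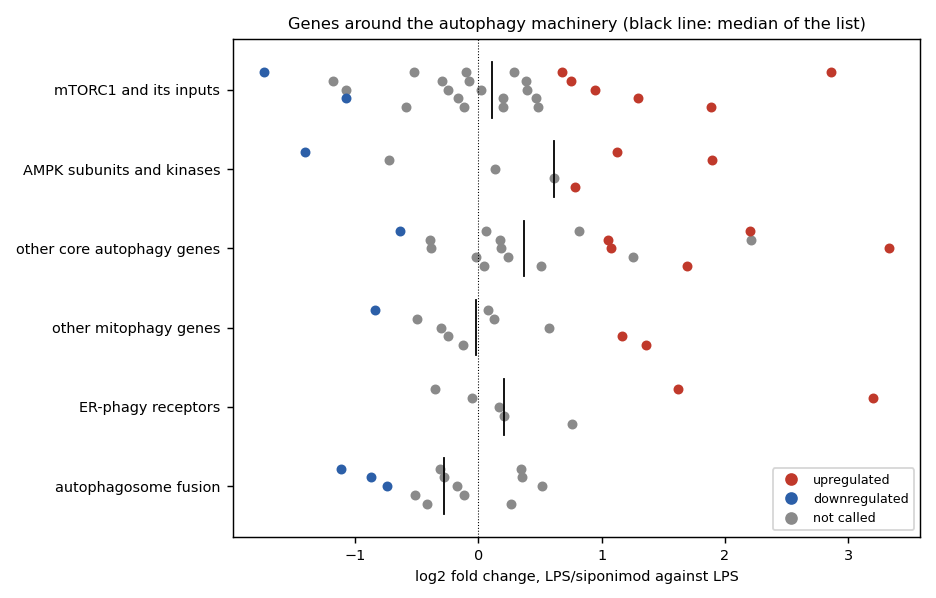
The plot shows the log2 fold change of LPS/siponimod against LPS (horizontal axis) for each tested gene of 6 further lists, in red for upregulated, blue for downregulated and grey for genes not called, with a black line at the median of each list. The fusion genes hold 3 blue and 0 red points, and the AMPK list holds 3 red points and 1 blue point.

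Some autophagy genes have been reported as targets of stress-related transcription factors. Of 12 genes reported as targets of ATF4 or CHOP, 2 (Sqstm1 and Nbr1) were upregulated and 0 downregulated (median 0.19), and the share of 16.7% was close to the 13.6% of all genes. Of 9 reported FoxO targets, 1 was upregulated and 0 downregulated (11.1%, median 0.22), and of 7 reported TFEB targets, 3 were upregulated and 0 downregulated (42.9%, median 0.55). The last 3 are Sqstm1, Uvrag and Atg9b, a relative of Atg9a, and the calls of Uvrag and Atg9b were lost without LPS replicate 2 and without LPS/siponimod replicate 1 (highest adjusted p-values of 0.0521 and 0.0785). These 3 lists share members, and they were written from general knowledge.

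Markers of cell types were examined last. All 10 microglia/macrophage markers were detected. Their summed level was 7208, 6092 and 4127 CPM in LPS and 3559, 4249 and 2829 CPM in LPS/siponimod (most abundant over all libraries: Csf1r). Of the 10, 3 were downregulated (Itgam -0.87, Aif1 -1.88 and Cx3cr1 -3.65 on the log2 scale) and 0 upregulated, against 11.7% and 13.6% of all genes. These 3 calls were lost without LPS replicate 2 and without LPS/siponimod replicate 1, among others, with highest adjusted p-values of 0.0618, 0.0982 and 0.147. The sums overlapped between groups, LPS replicate 3 being below LPS/siponimod replicate 2. Astrocyte markers summed to 42.5, 21.0 and 21.6 CPM in LPS and to 27.5, 26.8 and 57.6 CPM in LPS/siponimod (most abundant: Slc1a3), and oligodendrocyte lineage markers to 5.34, 5.37 and 36.0 CPM and to 11.4, 10.3 and 22.6 CPM (most abundant: Mbp). Neuron markers summed to 1.65, 1.04 and 11.2 CPM and to 6.39, 9.19 and 16.8 CPM (most abundant: Tubb3), and fibroblast and endothelial markers to 41.8, 108 and 23.3 CPM and to 15.5, 24.4 and 14.7 CPM (most abundant: Pecam1). No marker was at 0 in all 6 libraries, although Mog was above 0 in a single library. The sums of oligodendrocyte lineage and neuron markers were highest in the libraries numbered 3 within each group, but single markers differed, Mbp being lowest in LPS replicate 3 and Snap25 in LPS/siponimod replicate 3. Examples that follow the sums, chosen after their values were seen, are Olig1 with 1, 5 and 515 counts in LPS and 2, 3 and 17 counts in LPS/siponimod, and Pdgfra with 5, 4 and 284 counts and 1, 4 and 81 counts. Within LPS, the astrocyte markers Gfap (1, 2 and 88 counts) and Slc1a2 (5, 3 and 82 counts) were also highest in replicate 3. The same held for Gja1 (11, 5 and 41 counts) and Aqp4 (0, 3 and 10 counts). Slc1a3, which made up most of the astrocyte sum, and Aldh1l1 were instead highest in LPS replicate 1. Outside the microglial list, 3 markers were upregulated, namely Mbp (4.02, 4.18 and 2.26 CPM against 10.1, 8.89 and 15.9 CPM), Snap25 (0, 0.03 and 0.03 CPM against 2.02, 3.43 and 1.98 CPM) and Dcn (0.08, 0 and 0.11 CPM against 9.81, 1.10 and 4.34 CPM). By list, 1 of 3 oligodendrocyte lineage, 1 of 2 neuron, 1 of 5 fibroblast and endothelial and 0 of 3 astrocyte markers tested were upregulated. Over all genes this share was 13.6%, and 0 markers of these lists were downregulated. Without LPS replicate 2 or without LPS/siponimod replicate 1, Mbp and Dcn were no longer called. Mbp was also lost without LPS/siponimod replicate 3 and Dcn without LPS replicate 1. The part of these other cells in the values of autophagy genes was not tested. Of the 14 autophagy genes that were called, 14 were also called without LPS replicate 3 and 10 with both libraries numbered 3 left out, where Epg5, Nbr1 and Tax1bp1 were among those lost.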

How the data were processed

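The deposited files hold raw counts per gene, 1 table for each of the 6 libraries. The authors demultiplexed single-end reads with bcl2fastq (version 2.20.0.422), mapped them to mRatBN7.2 and deposited total counts without normalization, and the handling of multiply matching reads and of strand is not given in the sources used here, so that near-identical and overlapping genes are uncertain. In the table of LPS replicate 1, 1 empty row was left out.

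The analysis used edgeR 4.0.16 under R 4.3.3, with TMM scaling, filterByExpr (minimum count of 10) and a quasi-likelihood model of the condition alone, and p-values were adjusted after Benjamini-Hochberg over 11977 genes. DEGs had an adjusted p of at most 0.05 and an FC of at least 1.5. For standard errors, the absolute log2 FC was divided by the root of F. CPM used TMM-scaled library sizes, and differences within pairs a prior count of 2. Ratios of 2 genes used counts with 0.5 added. The depth, at least 38080379 counts in each library, limits counting error only, and since no molecular identifiers were used, reads do not stand for separate molecules. The procedure was tested on simulated data without pairing of libraries, in which 200 genes were changed. These changes were larger than those of most called autophagy genes, so that the test does not cover smaller changes.

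Same-numbered libraries of the 2 groups deviated together from the group means (correlation over genes 0.420, 0.545 and 0.611, against -0.534 to 0.086 for different numbers). Deviations within a group sum to 0, so that the values for different numbers are no independent baseline. The part of other-cell transcripts in the value of 0.611 for the libraries numbered 3 was not tested. Libraries of the same number were regarded as possibly paired, which rests on these values alone. The main fit does not use this pairing, and a fit with the replicate block was made beside it.

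As alternatives, RLE normalization in edgeR, limma-voom (limma 3.58.1), DESeq2 1.42.0, edgeR's likelihood ratio test, no filter, a mean of at least 1 CPM, the replicate block, no minimum FC and each library left out in turn were tried. Leaving out both libraries numbered 3 was added after the data were seen. The 42 autophagy genes enter all totals, but 5 of them, forming 1 group, are not reported here, and the others were named, and of the other lists up to 3 genes in each direction with the smallest adjusted p, besides called genes where few were called and a few (Mtor, Vps11) named after their values were seen. The autophagy genes and the lists were chosen with earlier results of these data known, so that their counts are no independent evidence.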

Additional observations from a re-analysis of the deposited data

How the results depend on the processing

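All 14 calls among autophagy genes were kept with RLE normalization, DESeq2, limma-voom, the likelihood ratio test, a mean of at least 1 CPM and the replicate block. With the replicate block, 15 autophagy genes were upregulated and 2 downregulated, Atg7, Mitf and Ulk1 being added, and 4074 genes of all were DEGs. With no filter, Epg5 and Vmp1 were lost, leaving 0 downregulated autophagy genes, and more genes were tested. With both libraries numbered 3 left out, 1 gene (Vmp1) was called as downregulated and the log2 FC of Optn was 0.20 in place of -0.05; the cause was not tested.

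Leaving out 1 library at a time had the largest effect. DEGs over all genes then ranged from 651 to 3713, upregulated autophagy genes from 4 to 13 and downregulated ones from 0 to 3. Fewer samples entered these fits, and the lowest numbers came without LPS replicate 2 and without LPS/siponimod replicate 1. The sign of the log2 FC changed in at least 1 of these fits for Atg9a (-0.031 to 0.071), Wipi1 (-0.12 to 0.84), Atg4b (-0.084 to 0.045), Atg4c (-0.0090 to 0.51), Optn (-0.26 to 0.10), Pink1 (-0.66 to 0.020) and Bnip3l (-0.029 to 0.30), none of which was called with all 6 libraries. The median of the autophagy genes stayed positive under each of these alternatives.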
